A study of Canis lupus familiaris with 34 samples.

Results

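Leukemias and lymphomas of dogs were compared as uncultured tumor cells. The leukemias were 1 acute lymphoblastic leukemia (ALL, from the golden retriever mix Rascal) and 2 chronic lymphocytic leukemias (CLL, from Maddle and Forrest). The 13 lymphomas were 6 diffuse large B cell lymphomas (DLBCL), 1 marginal zone lymphoma (MZL) and 6 T-zone lymphomas (TZL), and every dog other than Rascal was labelled a golden retriever. Members were taken by the tumor type in the sample labels, which gave 16 of the 34 arrays of the series. The other 18 arrays held cultured cells of hemangiosarcoma, splenic hematoma and osteosarcoma and were not compared here. The labels give no treatment or genotype for any dog, and the study's methods say of blood samples from tumor-bearing dogs that they were taken before therapy began or at necropsy. The labels do not say from which tissue the cells came or what share of them were tumor cells.

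Expression was read on Affymetrix Canine_2 arrays, where a probe set is a group of short probes that reads 1 transcript. All levels are log2 intensities made with RMA (robust multi-array average), so 1 unit is a doubling, and levels of different probe sets cannot be ranked against each other. The study used these tumors together as other cancers beside hemangiosarcoma, and the question here was how the leukemias differed from the lymphomas. The labels give 1 array per dog, so the p-values measure the spread between dogs. The main comparison took all lymphomas as 1 group, so their spread also held the differences between DLBCL, MZL and TZL. A gene that differed between these subtypes could therefore miss the threshold in the main comparison. Only 3 leukemias, of 2 kinds, limit the precision of every difference. In cells taken in bulk, fewer cells of a type and less RNA per cell cannot be told apart.

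Leukemia cells circulate in the blood and marrow, where platelets, neutrophils and monocytes are their neighbors. Lymphomas usually grow in lymph nodes, in a framework of stromal cells that make adhesion molecules and chemokines, and among macrophages, dendritic cells and residual normal lymphocytes. B cells are recognized by the antigen receptor chain CD79B and the surface protein MS4A1 (CD20), and T cells by the CD3 chains.

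The actin control, a check of RNA quality, differed between the groups before any gene was compared. It is read at both ends of the transcript, and a signal higher at the 3′ end than at the 5′ end marks RNA that is degraded or was copied incompletely. The 3′ signal exceeded the 5′ signal by 2.63 in ALL Rascal, 2.01 in CLL Maddle and 3.35 in CLL Forrest. In the lymphomas the same difference ran from -0.70 to 1.97 with a median of 0.56, so the groups did not overlap. The means were 2.66 ± 0.67 (SD, n = 3) and 0.52 ± 0.92 (SD, n = 13), a difference of 2.14 (exact permutation test over 560 regroupings, two-sided p = 0.00179, the smallest this design allows). The lymphomas with the highest values were DLBCL Chieftain (1.97), TZL Thunder (1.89) and TZL Fire (1.53), while the other 10 lay between -0.70 and 1.08. For GAPDH, the other control read at both ends, the difference was 0.42 ± 0.33 (SD, n = 3) in leukemias and 0.66 ± 0.29 (SD, n = 13) in lymphomas (exact permutation test, two-sided p = 0.234). The part of RNA quality in the results below was not tested apart from the tumor type, and the values of the 3 lymphomas with high actin differences are given beside the main gene groups.

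**Figure D1:**
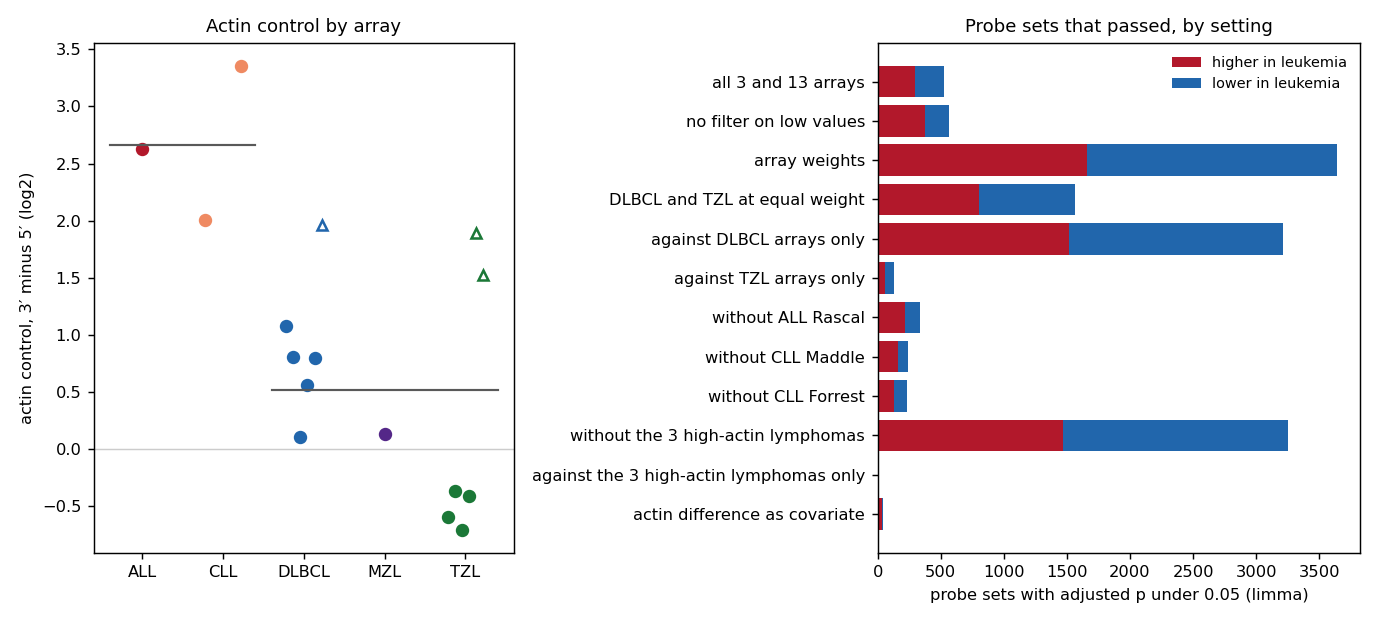
Left, actin control difference (3′ minus 5′, log2 units) of each array by tumor type, with horizontal lines at the means of the 3 leukemias and of the 13 lymphomas; open triangles mark DLBCL Chieftain, TZL Thunder and TZL Fire. Right, number of probe sets with an adjusted p under 0.05 under 12 settings, split by direction: 528 passed with all arrays, 3252 without those 3 lymphomas, and 0 against those 3 alone. The fit against those 3 alone held 3 arrays in each group, so few differences could pass.

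Of 24925 probe sets tested, 528 differed between leukemias and lymphomas (limma, adjusted p under 0.05), which is 2.12%. Among them 300 (1.2%) were higher and 228 (0.915%) were lower in leukemias. With 1 probe set per gene, 123 of 10400 genes (1.18%) were higher and 92 (0.885%) were lower. In 364 probe sets (1.46%) and 160 genes (1.54%) all 3 leukemias lay above all 13 lymphomas, and in 385 probe sets (1.54%) and 172 genes (1.65%) all 3 lay below. The count depended on which lymphomas were used: it was 1411 without TZL Fire, 1130 without TZL Thunder, and between 352 and 658 without any other lymphoma. It was 339 without ALL Rascal, 243 without CLL Maddle and 234 without CLL Forrest. Against DLBCL Chieftain, TZL Thunder and TZL Fire alone no probe set passed with limma, with 1192 at an unadjusted p under 0.05 (4.78% of those tested). That fit held only 3 arrays in each group, so few differences could pass, and its count cannot be compared with the 528. With the actin difference as a covariate 39 passed, 35 higher and 4 lower.

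**Figure D2:**
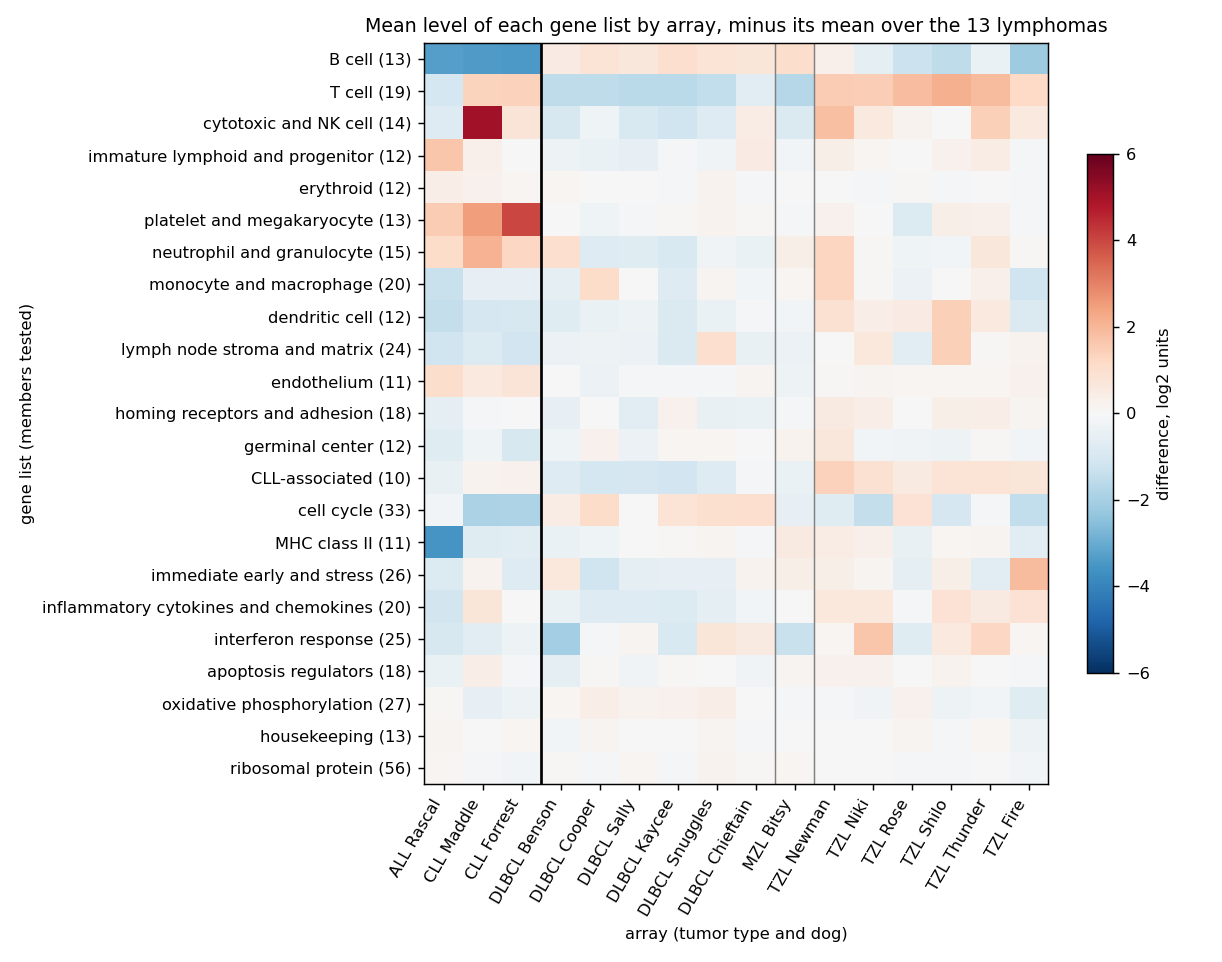
Mean log2 level of each of 23 gene lists (rows, with the number of members tested) on each of the 16 arrays (columns), minus the mean over the 13 lymphomas; red is higher and blue is lower. The 3 leukemia columns are blue for B-cell genes and red for platelet genes, while cytotoxic genes stand out in CLL Maddle and MHC class II genes are low in ALL Rascal.

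Genes of platelets and of megakaryocytes, the marrow cells that shed platelets, were higher in the leukemias. Of 21 genes listed, 16 are on the array and 13 passed the filter on low values, and 8 of those 13 rose, against 1.18% of all genes tested. Counted over every probe set of a gene, 10 of the 16 on the array rose, against 1.07% of all 15115 genes on the array. In 9 of the 16 all leukemias lay above all lymphomas, against 1.37% of all genes on the array. Without the filter 10 of the 16 rose, against 0.946%. The median difference over the 13 was 2.51, beside -0.01 over all genes tested, and all 13 were positive. Of the 13, 1 (GP1BA) lay above the array median in fewer than 3 lymphomas, so it passed the filter only through the leukemias, where it is high. The count was 8 without ALL Rascal, 7 without CLL Maddle, 6 without CLL Forrest and 3 with the actin covariate. In the same order 92, 77, 65 and 19 of all 10400 genes tested rose. The list's mean level was 7.75 in ALL Rascal, 8.70 in CLL Maddle and 10.19 in CLL Forrest, and 5.39 to 6.58 in the lymphomas.

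PPBP, the chemokine precursor that platelets store in their granules, gave the largest difference of any probe set tested. On that probe set the level was 9.66 in ALL Rascal, 11.81 in CLL Maddle and 12.69 in CLL Forrest. The lymphomas lay between 2.72 and 4.37 with a median of 3.12, so no lymphoma came near a leukemia. The difference was 8.07 ± 0.45 (SE, adjusted p = 2.23e-08, limma), and another PPBP probe set gave 7.25 ± 0.47 (adjusted p = 1.35e-07). The probe set with the highest mean, which would stand for the gene under the rule used elsewhere, did not pass the filter, so these 2 were read after their values were seen. Both lay below the array median in every lymphoma and passed the filter only through the leukemias. Against the 3 lymphomas with high actin differences alone, the larger difference was 7.60 (unadjusted p = 2.65e-05, adjusted p = 0.0589), and with the actin covariate it was 7.26 (adjusted p = 2.03e-05).

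GNG11, a G protein subunit abundant in platelets, measured 11.83, 13.24 and 13.94 in ALL Rascal, CLL Maddle and CLL Forrest. It measured 5.85 to 9.02 in the lymphomas, with a median of 7.35. The groups did not overlap, and the difference of 5.66 ± 0.62 (SE, adjusted p = 6.17e-05) is a fold of 50.5. ITGA2B, a chain of the platelet fibrinogen receptor, measured 9.20, 9.63 and 11.75 in the leukemias and 5.87 to 7.24 in the lymphomas, with a median of 6.31. Again there was no overlap, and the difference was 3.80 ± 0.37 (SE, adjusted p = 1.75e-05). GP1BA, the platelet receptor for von Willebrand factor, measured 6.33, 8.16 and 9.84 in the leukemias and 3.46 to 4.91 in the lymphomas, with a median of 3.86. The difference was 4.22 ± 0.44 (SE, adjusted p = 3.97e-05). In GNG11, ITGA2B and GP1BA the ALL was the lowest leukemia and CLL Forrest the highest.

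THBS1, an adhesive protein released from platelet granules, measured 8.51, 10.54 and 12.28 in the leukemias, and 4.70 to 7.92 in the lymphomas with a median of 5.40 (difference 4.58 ± 0.67, SE, adjusted p = 0.00136). F13A1, a subunit of the clotting factor that cross-links fibrin, was 8.34, 9.70 and 10.95 in the leukemias and at most 7.86 in the lymphomas (difference 3.78 ± 0.70, SE, adjusted p = 0.00866, and 0.08 without CLL Forrest). Both lists of values were free of overlap. The other members that rose were GP9, the partner of GP1BA in its receptor (2.07 ± 0.26, SE), the platelet tubulin TUBB1 (1.57 ± 0.26, SE) and PTGS1, the cyclooxygenase that platelets use to make thromboxane (2.51 ± 0.59, SE). In PTGS1 the groups overlapped. In DLBCL Chieftain, TZL Thunder and TZL Fire, ITGA2B was at 6.69, 6.39 and 7.24, GP1BA at 4.06, 3.73 and 4.91, and GNG11 at 6.71, 7.68 and 9.02. TZL Fire was the highest lymphoma for each of these genes, and all 3 lymphomas lay below every leukemia. Against these 3 alone all 13 platelet differences were positive, with a median of 2.41. None passed with limma, as no probe set did with 3 arrays in each group.

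**Figure D3:**
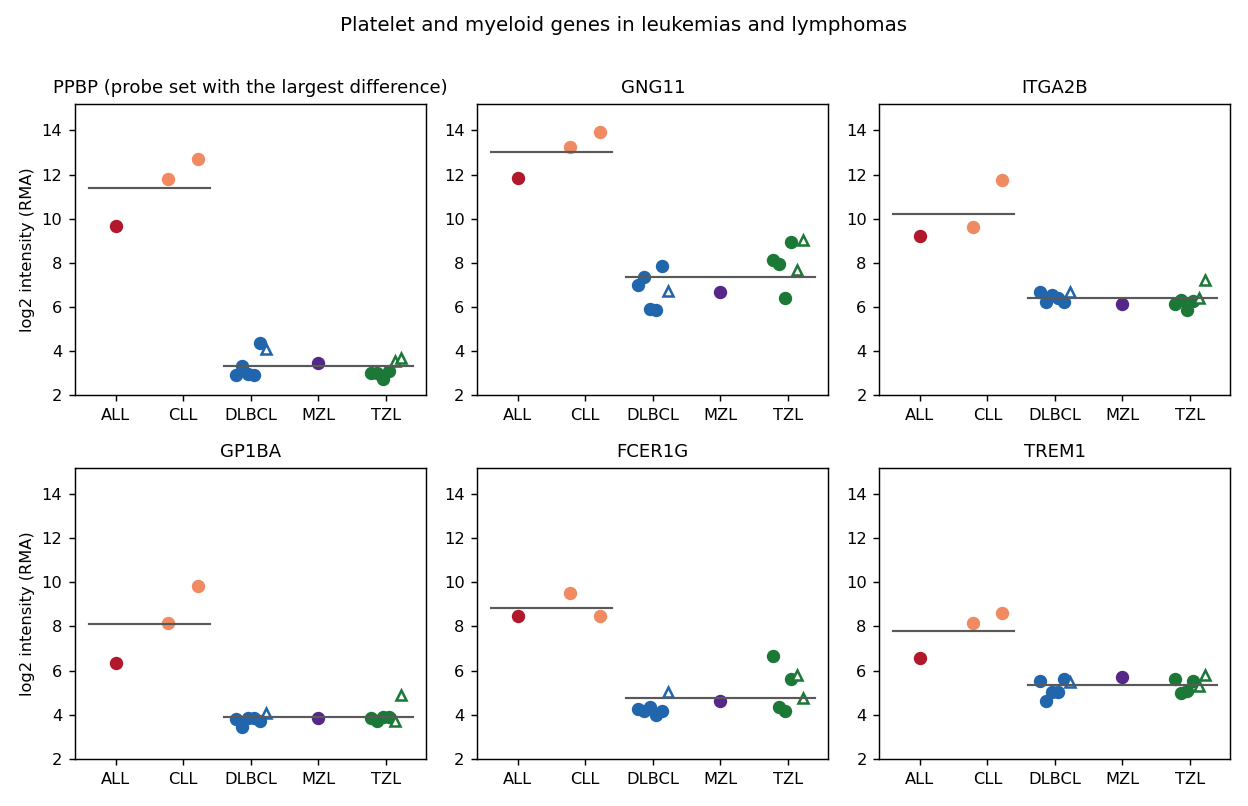
Log2 intensity of 6 genes on each array, by tumor type; each point is 1 dog, horizontal lines are the means of the 3 leukemias and of the 13 lymphomas, and open triangles are the 3 lymphomas with the highest actin differences. In each panel the 3 leukemias lie above all 13 lymphomas, the triangles included.

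Some genes of neutrophils and monocytes were higher too. FCER1G, the signaling chain shared by Fc receptors of myeloid cells and platelets, measured 8.48, 9.52 and 8.48 in the leukemias. The lymphomas ran from 3.995 to 6.66 with a median of 4.37. All leukemias were above all lymphomas, by 4.06 ± 0.47 on average (SE, adjusted p = 0.000124). FCER1G exceeded the array median in 2 lymphomas only, so it passed the filter only through the leukemias. FCGR1A, the high-affinity receptor for IgG of monocytes, measured 7.42, 9.94 and 9.10, against 4.43 to 7.16 in the lymphomas (difference 3.53 ± 0.52, SE, adjusted p = 0.00156). TREM1, an activating receptor of neutrophils and monocytes, measured 6.59, 8.17 and 8.59, against 4.65 to 5.82 (difference 2.45 ± 0.32, SE, adjusted p = 0.000502). Neither of these receptors overlapped between the groups.

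Of 15 neutrophil and granulocyte genes tested (19 on the array, 28 listed), 3 rose, against 1.18% of all genes tested, and none fell. Of the 15, 3 passed the filter only through the leukemias, TREM1 and LCN2 among them, so these could hardly be called lower. With the actin covariate none of the 15 passed, where 19 of all 10400 genes tested rose and 2 fell. The members that rose besides TREM1 were LCN2, an iron-trapping protein of neutrophil granules (2.07 ± 0.32, SE, adjusted p = 0.002), and BPI, a bactericidal granule protein (2.99 ± 0.68, SE, adjusted p = 0.0315, and 0.164 without CLL Forrest). The median of the list was 1.70. S100A8, a calcium-binding protein abundant in neutrophils and monocytes, was 11.51, 12.51 and 11.29 in the leukemias and 6.79 to 11.89 in the lymphomas. It did not pass (difference 2.58 ± 0.92, SE, adjusted p = 0.127), and the groups overlapped. The list's mean level was 7.80, 8.77 and 7.94 in the leukemias and 5.79 to 7.98 in the lymphomas. MPO, the myeloperoxidase of granulocyte precursors, was 6.96 in the ALL, 4.07 and 4.14 in the CLLs, and 4.42 to 7.60 in the lymphomas.

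The remaining genes with the largest rises were not on the platelet, neutrophil or monocyte lists, and which cells they came from was not tested. PPIC, a cyclophilin that helps proteins fold, measured 11.54, 10.96 and 12.51 in the leukemias and 4.30 to 9.27 in the lymphomas, with a median of 5.46 (difference 5.80 ± 0.91, SE, adjusted p = 0.00244). SH3BGRL2 measured 12.44, 10.20 and 12.09 in the leukemias and 5.11 to 8.72 in the lymphomas, with a median of 5.90 (difference 5.36 ± 0.66, SE, adjusted p = 0.000224). TREM2, a lipid-sensing receptor of myeloid cells, was 10.91, 8.70 and 10.29, against 5.45 to 7.61 (difference 3.97 ± 0.42, SE, adjusted p = 4.17e-05). Each of these genes was higher in every leukemia than in every lymphoma. The same held for MYL9, a myosin light chain of contractile cells (difference 3.82 ± 0.46, SE), which passed the filter only through the leukemias, and for SERPINE2, an inhibitor of thrombin (3.92 ± 0.77, SE, adjusted p = 0.0133, and 0.0877 without CLL Forrest).

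TIMP1, an inhibitor of matrix metalloproteinases, was 11.93, 12.37 and 12.15 in the leukemias and 4.98 to 10.56 in the lymphomas. The groups were separate, with a difference of 4.42 ± 0.95 (SE, adjusted p = 0.0233), although the adjusted p rose to between 0.0652 and 0.0914 without any 1 leukemia. FN1, the matrix protein fibronectin, was 9.98, 9.25 and 10.43 in the leukemias and had a median of 4.79 in the lymphomas. DLBCL Snuggles, at 10.68, lay above all leukemias, and the difference of 4.396 ± 0.92 (SE, adjusted p = 0.0205) did not pass without any 1 leukemia, reaching 0.0996 without CLL Forrest. FLT1, a receptor for vascular endothelial growth factor that monocytes also carry, was 7.48, 7.38 and 5.704 against 3.59 to 4.67 (difference 2.82 ± 0.33, SE, adjusted p = 0.000124). It lay below the array median in every lymphoma and passed the filter only through the leukemias. It was the one gene of 11 endothelial genes tested to pass as higher, against 1.18% of all genes. Of the 11 differences 9 were positive, with a median of 0.89. At an unadjusted p under 0.05 with limma, 5 of the 11 were higher, against 1030 of all 10400 genes tested. The list's mean level was 7.18, 6.75 and 6.90 in the leukemias and 5.77 to 6.42 in the lymphomas. The endothelial markers PECAM1 and CDH5 did not pass (adjusted p = 0.472 and 0.467).

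PDLIM1, a cytoskeletal adaptor, rose by 4.02 ± 0.94 (SE, adjusted p = 0.0369, and 0.205 without CLL Forrest), with overlap between the groups. FECH, the last enzyme of heme synthesis, was 11.10, 9.17 and 9.52 against 7.26 to 8.74 (difference 1.74 ± 0.34, SE, adjusted p = 0.0127, and 0.0771 without ALL Rascal). It was the only gene to rise of 12 erythroid genes tested, against 1.18% of all genes. The red cell genes ALAS2 and SLC4A1 did not pass (adjusted p = 0.561 and 0.58). XIAP, an inhibitor of caspases, rose by 1.04 ± 0.25 (SE, adjusted p = 0.0395, and 0.165 without CLL Maddle), and it too passed the filter only through the leukemias. CD200, a surface protein that restrains myeloid cells, was 10.08 in the ALL but 6.30 and 7.19 in the CLLs, against 5.14 to 6.35 (difference 1.98 ± 0.50, SE, adjusted p = 0.0481, and 0.159 without the ALL).

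B-cell genes were lower in all 3 leukemias, the CLLs included. Of 19 listed, 15 are on the array and 13 were tested, and 9 of the 13 fell, against 0.885% of all genes tested. All 13 differences were negative, with a median of -3.31. The count of 9 was 5 without ALL Rascal, 3 without CLL Maddle, 4 without CLL Forrest and 2 with the actin covariate, while all 13 differences were negative in each case. In the same order 45, 38, 48 and 2 of all 10400 genes tested fell. Over every probe set, 10 of the 15 on the array fell, against 1.03% of all genes on the array. In 9 of the 15 all leukemias lay below all lymphomas, against 1.26% of all genes on the array. Without the filter 8 of the 15 fell, against 0.503%. The list's mean level was 5.90 in ALL Rascal, 5.77 in CLL Maddle and 5.76 in CLL Forrest. It was 9.70 to 10.22 in DLBCL, 10.26 in the MZL and 7.06 to 9.48 in TZL, so even the T-cell lymphomas carried more B-cell signal than any leukemia.

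MS4A1, which encodes CD20, measured 6.98, 5.60 and 5.96 in the leukemias. In the lymphomas it ran from 7.68 in TZL Fire to 12.40 in DLBCL Snuggles, with a median of 10.996. There was no overlap, and the level fell by 4.59 ± 0.82 on the log2 scale (SE, adjusted p = 0.00707, and 0.0502 without CLL Maddle). CD79B, a signaling chain of the B-cell receptor, measured 5.14, 5.82 and 6.05 in the leukemias and 8.36 to 11.91 in the lymphomas, with a median of 10.22. The difference was -4.53 ± 0.65 (SE, adjusted p = 0.0012). Its partner CD79A did not pass: it differed by -1.10 ± 0.40 (SE, adjusted p = 0.137). FCRLA, an intracellular Fc receptor-like protein of B cells, measured 5.39, 5.93 and 6.51 against 8.89 to 12.94, a difference of -5.19 ± 0.75 (SE, adjusted p = 0.0012).

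CD40, the receptor through which T cells help B cells, measured 6.74, 5.69 and 6.21 in the leukemias and 7.80 to 11.40 in the lymphomas, with a median of 10.73 (difference -4.19 ± 0.57, SE, adjusted p = 0.000749). EBF1, a transcription factor that sets the B-cell program, measured 3.64, 3.87 and 3.51 against 4.90 to 9.56 (difference -4.11 ± 0.83, SE, adjusted p = 0.016, and 0.0749 without CLL Forrest). No leukemia reached the lowest lymphoma for either gene. The other members that fell were CD72 (-3.29 ± 0.80, SE), CD22 (-3.12 ± 0.62, SE), both inhibitory coreceptors, TNFRSF13C, a receptor for the survival factor BAFF (-2.33 ± 0.55, SE), and POU2AF1, a coactivator of immunoglobulin genes (-2.06 ± 0.44, SE). PAX5, which guards B-cell identity, did not pass the filter, with means of 5.47 in leukemias and 5.41 in lymphomas. In DLBCL Chieftain, TZL Thunder and TZL Fire the B-cell list stood at 9.94, 8.80 and 7.06. TZL Fire was the lowest of all lymphomas. Against these 3 alone all 13 differences were negative, with a median of -2.64. None passed with limma, as no probe set did with 3 arrays in each group.

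**Figure D4:**
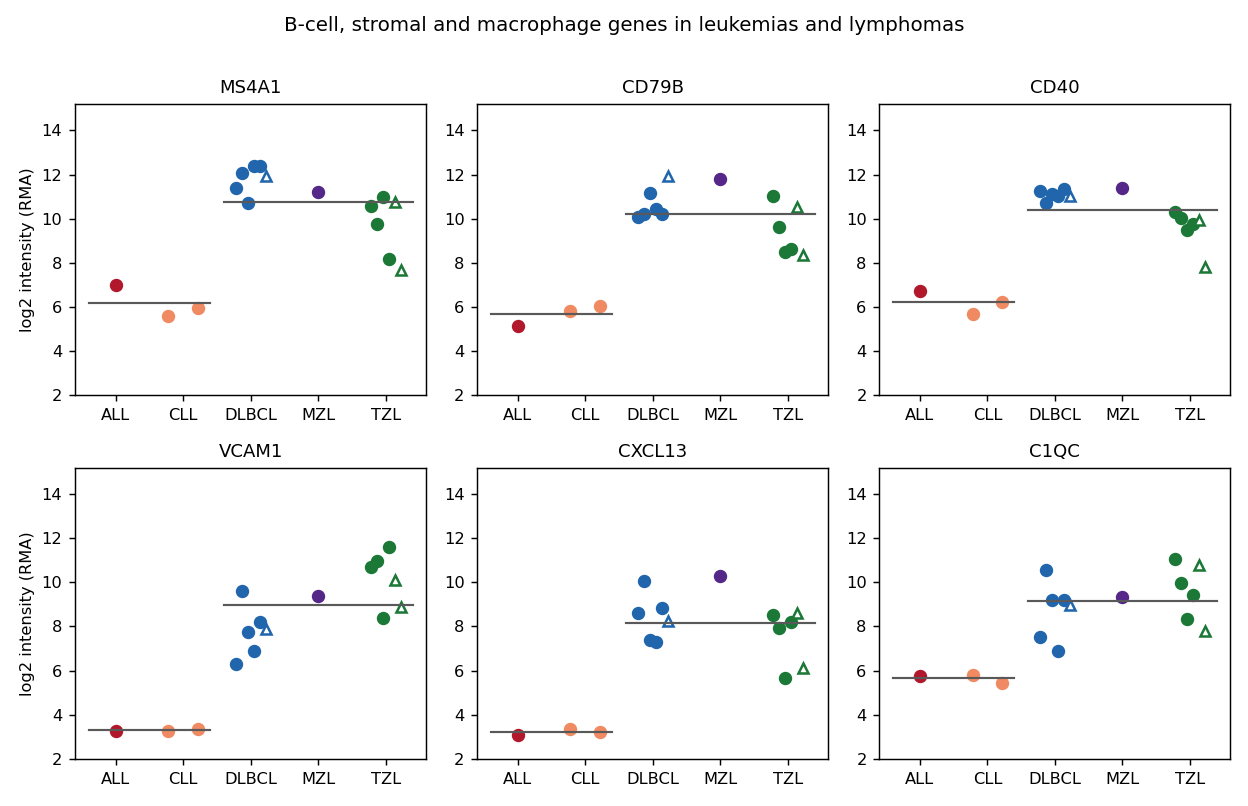
Log2 intensity of 6 genes on each array by tumor type, drawn as in the plot of platelet and myeloid genes. In each panel all 3 leukemias lie below all 13 lymphomas.

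Among stromal and matrix genes 4 were lower in the leukemias and most did not pass. VCAM1, an adhesion molecule to which lymphocytes bind, measured 3.26, 3.25 and 3.37 in the leukemias. The lymphomas ran from 6.28 to 11.58 with a median of 8.88. No value overlapped, and the difference was -5.67 ± 0.87 (SE, adjusted p = 0.0021). CXCL13, the chemokine by which follicular dendritic cells draw B cells into follicles, measured 3.09, 3.36 and 3.24 against 5.66 to 10.30, with a median of 8.26 (difference -4.91 ± 0.72, SE, adjusted p = 0.00147). CLU, a secreted chaperone abundant in follicular dendritic cells, measured 5.82, 6.72 and 5.99 against 8.76 to 12.40 (difference -4.29 ± 0.53, SE, adjusted p = 0.000254). IGFBP7, made by vessel and stromal cells, measured 5.69, 6.56 and 6.27 against 7.98 to 12.34 (difference -4.10 ± 0.61, SE, adjusted p = 0.00159).

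These 4 were the only genes to fall of 24 stromal and matrix genes tested (29 on the array), against 0.885% of all genes, and FN1 was the only one to rise, against 1.18%. With the actin covariate none of the 24 passed, where 19 of all 10400 genes tested rose and 2 fell. The median of the list was -0.28, and 19 of the 24 differences were negative. COL1A1, a chain of type I collagen, was 4.52, 4.31 and 5.01 in the leukemias and 4.03 to 10.37 in the lymphomas (adjusted p = 0.476). CCL19, a chemokine of the T-cell zone, was 5.96, 5.91 and 6.06 in the leukemias. It was similarly low in DLBCL, at 5.96 to 6.62, and reached 8.32 to 12.38 in TZL. Its difference from all lymphomas did not pass (-2.17 ± 1.25, SE, adjusted p = 0.318), while that from TZL did (-4.30, adjusted p = 0.00427). CXCL12, which holds cells in marrow and node, did not pass (adjusted p = 0.169).

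The macrophage genes split in both directions. The 3 chains of the complement component C1q, made by tissue macrophages, all fell. C1QA was 8.64, 8.59 and 8.52 in the leukemias and 9.98 to 12.70 in the lymphomas (difference -2.64 ± 0.51, SE, adjusted p = 0.0117, and 0.0609 without CLL Forrest). C1QC was 5.73, 5.82 and 5.45 against 6.91 to 11.07 (difference -3.50 ± 0.69, SE, adjusted p = 0.0144, and 0.0727 without CLL Forrest). C1QB fell by 3.03 ± 0.70 on the log2 scale (SE, adjusted p = 0.0333). The leukemias lay below all lymphomas for each chain.

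APOE, the lipid carrier of macrophages, measured 4.04, 4.05 and 3.997 against 6.23 to 11.08 (difference -4.58 ± 0.80, SE, adjusted p = 0.00615). TIMD4, a receptor with which resident macrophages bind dying cells, measured 3.29, 4.14 and 3.87 against 4.78 to 9.51 (difference -3.58 ± 0.64, SE, adjusted p = 0.00731). Both were free of overlap. In all, 5 of 20 macrophage and monocyte genes tested fell, against 0.885% of all genes, and 2 rose, against 1.18%, the latter being FCER1G and FCGR1A. The count that fell was 4 without ALL Rascal, 2 without CLL Maddle, 2 without CLL Forrest and 0 with the actin covariate, where 1 rose. In the same order 45, 38, 48 and 2 of all 10400 genes tested fell, and with the covariate 19 rose. CD14, a coreceptor for endotoxin, was 6.60, 7.90 and 8.14 in the leukemias and 6.32 to 7.82 in the lymphomas (adjusted p = 0.413). CD163, the hemoglobin scavenger receptor, did not pass the filter.

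LAMP3, a lysosomal protein of mature dendritic cells, measured 4.36, 7.29 and 5.20 in the leukemias and 6.71 to 11.70 in the lymphomas, with a median of 10.48. CLL Maddle lay above TZL Fire, the lowest lymphoma, and the difference was -4.64 ± 0.77 (SE, adjusted p = 0.00403). It was the only gene to fall of 12 dendritic cell genes tested, against 0.885% of all genes. CD83, another marker of mature dendritic cells, was 7.56 in the ALL and 5.20 and 5.18 in the CLLs, against 7.10 to 10.77 (adjusted p = 0.075). Among further genes with the largest falls were the transcription factor BHLHE41 (-4.49 ± 0.98, SE, adjusted p = 0.0248), the lipid phosphatase PLPP3 (-4.36 ± 0.93, SE, adjusted p = 0.0214), the uncharacterized LOC490269 (-4.13 ± 0.70, SE, adjusted p = 0.00464), and KMO, an enzyme of tryptophan breakdown (-4.08 ± 1.02, SE, adjusted p = 0.0472). The adjusted p of BHLHE41 reached 0.0956 without CLL Maddle. Without CLL Forrest that of PLPP3 reached 0.0801 and that of KMO 0.153. LOC490269 passed whichever array was left out.

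Genes of antigen presentation and of traffic within the node fell in small numbers. DLA-DOB and DLA-DOA, which modulate peptide loading on MHC class II, differed by -3.28 ± 0.66 (SE, adjusted p = 0.0151, and 0.0818 without ALL Rascal) and by -2.79 ± 0.62 (SE, adjusted p = 0.0277, and 0.154 without CLL Forrest). They were the only genes to fall of 11 tested in the class II list, against 0.885% of all genes, and all 11 had negative differences. DLA-DOA was 10.38 in the ALL, within the 9.07 to 12.28 of the lymphomas, and 7.21 and 7.22 in the CLLs, so on that probe set it was low in the CLLs only. Another DLA-DOA probe set also passed (-2.18 ± 0.45, SE, adjusted p = 0.0176). It was 8.54 in the ALL and 7.05 and 7.21 in the CLLs, against 8.21 to 11.01 in the lymphomas with a median of 9.95. Without any 1 leukemia 1 of the 11 fell. Of all 10400 genes tested, 45 fell without ALL Rascal, 38 without CLL Maddle and 48 without CLL Forrest. CCR7, the receptor that guides lymphocytes into nodes, was 4.63, 4.68 and 6.46 in the leukemias and 6.28 to 9.62 in the lymphomas. Only CLL Forrest overlapped, and the difference was -2.38 ± 0.56 (SE, adjusted p = 0.0377, and 0.151 without CLL Maddle). S1PR1, the receptor by which lymphocytes leave nodes, did not pass (0.38 ± 0.75, SE, adjusted p = 0.798). NR4A2, an early response gene, fell by 2.72 ± 0.67 on the log2 scale (SE, adjusted p = 0.0431, and 0.241 without CLL Forrest).

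From the list of genes known from human CLL, 10 were tested. FCMR, the Fc receptor for IgM, was 8.12, 8.33 and 9.405 in the leukemias and 9.85 to 11.99 in the lymphomas (difference -2.16 ± 0.40, SE, adjusted p = 0.00842, and 0.0568 without ALL Rascal). TNFRSF13B, a receptor for BAFF and APRIL, was 5.52, 5.60 and 5.51 against 6.08 to 9.75 (difference -2.46 ± 0.58, SE, adjusted p = 0.0359, and 0.12 without CLL Forrest). Both were lower in every leukemia than in every lymphoma, which held for 1.65% of all genes tested. They were the only 2 of the 10 to fall, against 0.885% of all genes. CD200, given above, was the 1 that rose, against 1.18%. It was highest in the ALL and did not pass without it.

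With 1 probe set per gene, several gene lists held no call with limma. None of 33 cell cycle genes passed, although 32 of the 33 differences were negative, with a median of -1.36, and 14 were lower at an unadjusted p under 0.05. Of all 10400 genes tested, 5256 had negative differences. At that unadjusted level 1112 of the 10400 were lower and 1030 were higher, the background for the unadjusted counts below. TOP2A, which untangles replicated DNA, was 9.33 in the ALL and 6.80 and 6.95 in the CLLs, against 7.66 to 12.41 in the lymphomas (adjusted p = 0.131). CDK1, the kinase that starts mitosis, was 8.61, 5.28 and 6.12 against 6.09 to 10.12 (adjusted p = 0.247). In both genes the ALL lay within the lymphomas. The list's mean level was 8.60 in the ALL, 6.83 and 6.91 in the CLLs and 7.29 to 9.87 in the lymphomas. Over every probe set 1 of the 33 cell cycle genes fell, against 1.03% of all genes on the array. Without ALL Rascal 1 of the 33 fell, against 45 of all 10400 genes tested. Single calls stood in 4 other lists: POU2AF1 of 12 germinal center genes, XIAP of 18 apoptosis regulators, CCR7 of 18 homing receptors and adhesion genes, and NR4A2 of 26 immediate early and stress genes. POU2AF1, CCR7 and NR4A2 fell, against 0.885% of all genes tested, and XIAP rose, against 1.18%. None of 19 T-cell genes passed (1 higher at an unadjusted p under 0.05), with a median of 0.74. The same count of 0 held for 25 interferon response genes (1 lower at an unadjusted p under 0.05), 20 inflammatory cytokines and chemokines (2 above and 4 below at that level), 27 genes of oxidative phosphorylation (1 lower), 12 genes of immature cells (2 higher) and 13 housekeeping genes (1 in each direction). It also held for 56 ribosomal protein genes (3 above and 1 below at that level). The medians for housekeeping and ribosomal genes were 0.05 and -0.03.

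The lymphomas mix B-cell and T-cell tumors, and in the main comparison the spread between subtypes counted as spread between dogs. For CD3E the SD was 2.58 over all lymphomas, 1.73 in DLBCL and 0.31 in TZL. The SE of BHLHE41 was 0.98 in the main comparison and 0.59 against DLBCL, while that of PPIC was 0.91 and 1.02. Each difference was therefore also taken against the subtypes with 6 arrays. These 2 comparisons share the 3 leukemias, so their values are given side by side only. Against DLBCL 4356 probe sets passed (17.5%), 2070 higher (8.3%) and 2286 lower (9.17%) in leukemias, and against TZL 281 passed (1.13%), 117 higher (0.469%) and 164 lower (0.658%). By genes, 18.0% differed from DLBCL (8.2% higher, 9.83% lower) and 1.16% from TZL (0.49% higher, 0.673% lower). The platelet list had 9 of 13 genes higher against DLBCL and 7 against TZL, with medians of 2.13 and 2.71. GNG11 differed by 6.22 from DLBCL (adjusted p = 1.46e-05) and by 4.99 from TZL (adjusted p = 0.000348).

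Against DLBCL 12 of the 13 B-cell genes were lower (median -4.40), and against TZL 7 were lower (median -2.28). MS4A1 differed by -5.63 from DLBCL and by -3.48 from TZL (adjusted p = 8.66e-05 and 0.0154). VCAM1 differed by -4.47 from DLBCL and by -6.80 from TZL. Cell cycle genes were lower against DLBCL in 21 of 33 cases, with a median of -2.11. Against TZL none passed with limma, and the median was -0.59. T-cell genes were higher against DLBCL in 8 of 19 cases, among them CD3E (3.30, adjusted p = 0.0103), and against TZL 1 was lower.

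The 3 leukemias were not one kind of cell. Over the tested probe sets the 2 CLL arrays correlated with each other at r = 0.92, and each correlated with the ALL at 0.81 to 0.82. These are correlations across probe sets, which are not independent, and they are given as descriptions. Leukemias correlated with TZL at 0.85 on average (18 pairs) and with DLBCL at 0.78 (18 pairs), while DLBCL arrays correlated with each other at 0.91. The nearest array to CLL Forrest was TZL Thunder (0.93), the nearest to ALL Rascal was DLBCL Chieftain (0.84), and the nearest to CLL Maddle was CLL Forrest (0.92). TZL Thunder and DLBCL Chieftain are lymphomas with a high actin difference.

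The labels give lymphocytes as the origin of the CLLs without a lineage. CD3E, a chain of the T-cell receptor complex, was 12.18 in CLL Maddle and 12.65 in CLL Forrest, beside 12.20 to 12.94 in TZL and 7.02 to 11.02 in DLBCL. The mean of the T-cell list was 9.61 and 9.66 in the CLLs and 9.48 to 10.42 in TZL. The members differed: CD28, a costimulatory receptor of T cells, was 5.33 in CLL Maddle and 9.92 in CLL Forrest, beside 9.98 to 11.06 in TZL. Over all 3 leukemias 18 of the 19 T-cell differences from TZL were negative, with a median of -0.97. The B-cell list mean was lower in both CLLs than in every TZL. CD8A, a coreceptor of cytotoxic T cells, was 11.67 in CLL Maddle and 5.72 in CLL Forrest. It ran from 5.15 to 11.57 in TZL, with TZL Shilo (11.57) and TZL Thunder (10.32) the highest, and from 4.64 to 6.06 in DLBCL. CD4, the coreceptor of helper T cells, was 7.80 and 8.51, within the 6.98 to 10.73 of the lymphomas. CD5, a T-cell surface protein that human B-cell CLL also carries, was 9.28 and 11.69.

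CLL Maddle carried the genes of cytotoxic cells. GZMA, a protease of cytotoxic granules, was 13.55 there, 8.32 in CLL Forrest and 4.03 in the ALL, and at most 7.78 in the lymphomas. PRF1, the pore-forming perforin, was 9.98 in CLL Maddle, 5.21 in CLL Forrest and 4.46 in the ALL. GZMB, another granule protease, was 14.36 in CLL Maddle, 10.01 in CLL Forrest, 8.52 in the ALL and 3.90 to 9.08 in the lymphomas, with a median of 6.07. Its difference of 4.98 ± 1.16 (SE, adjusted p = 0.0354) was the only call among 14 cytotoxic genes tested. Of all genes tested, 1.18% were higher. The call was lost without CLL Maddle (3.29, adjusted p = 0.19). The mean of the cytotoxic list was 11.82 in CLL Maddle, 7.56 in CLL Forrest, 5.98 in the ALL and 5.55 to 8.59 in the lymphomas.

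CLL Forrest differed from the other leukemias in other genes. LEF1, a transcription factor of naive and immature T cells, was 10.598 there, 7.87 in CLL Maddle and 7.82 in the ALL, beside 9.41 to 10.58 in TZL and 3.81 to 7.36 in DLBCL. For LEF1 CLL Forrest thus stood at the level of TZL. The platelet genes ITGA2B, GNG11 and GP1BA, given above, were also highest in CLL Forrest. Among genes picked after their values were seen, DMD (dystrophin) was at 10.85 in CLL Forrest and at most 7.38 elsewhere. TNFSF11, the ligand that drives osteoclast formation, was at 10.13 and at most 7.66 elsewhere. With a single array for each of these leukemias, no test of the differences between them was possible.

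The ALL stood furthest from the rest. It lay above all 15 other arrays by over 1 log2 unit in 162 genes and below them by as much in 185, while the CLLs did so in 70 and 73 genes above and in 18 and 20 below. For the lymphomas these counts ran from 0 to 73 above and from 0 to 26 below. CD34, a marker of blood stem and progenitor cells, was 10.08 in the ALL and 5.33 to 6.45 on all other arrays. DNTT, the enzyme that adds bases to rearranging antigen receptor genes in immature lymphocytes, was 8.52, beside 3.31 and 3.55 in the CLLs and 3.27 to 7.14 in the lymphomas. RAG1, which cuts those genes, did not pass the filter and was 4.61 in the ALL.

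Several class II genes were low in the ALL, although DLA-DOA, given above, lay within the range of the lymphomas. DLA-DRA was 9.79 there, 13.34 and 13.50 in the CLLs and 13.18 to 13.82 in the lymphomas. CD74, the chaperone of class II molecules, was 9.605 in the ALL, 13.14 and 13.70 in the CLLs and 13.29 to 14.08 in the lymphomas. The mean of the class II list was 8.10 in the ALL, and without it the median difference of the list went from -1.55 to -0.19. CD3E was 10.31 in the ALL, below TZL and within DLBCL, and the mean of its T-cell list, 7.24, lay within the 6.66 to 7.66 of DLBCL. Neither lineage list thus stood in the ALL at the level seen in tumors of that lineage.

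Some further genes were picked for their distance from the other arrays. MS4A2, a chain of the high-affinity IgE receptor of mast cells and basophils, was 12.004 in the ALL and at most 7.02 elsewhere. TFPI, an inhibitor of the clotting cascade, was 11.70 and at most 6.28 elsewhere. ASNS, which makes asparagine, was 12.20 and at most 7.36 elsewhere. GPR65, an acid-sensing receptor of leukocytes, was 4.04 in the ALL and at least 9.35 elsewhere, and CD53, a tetraspanin of leukocytes, was 6.74 and at least 10.55 elsewhere.

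**Figure D5:**
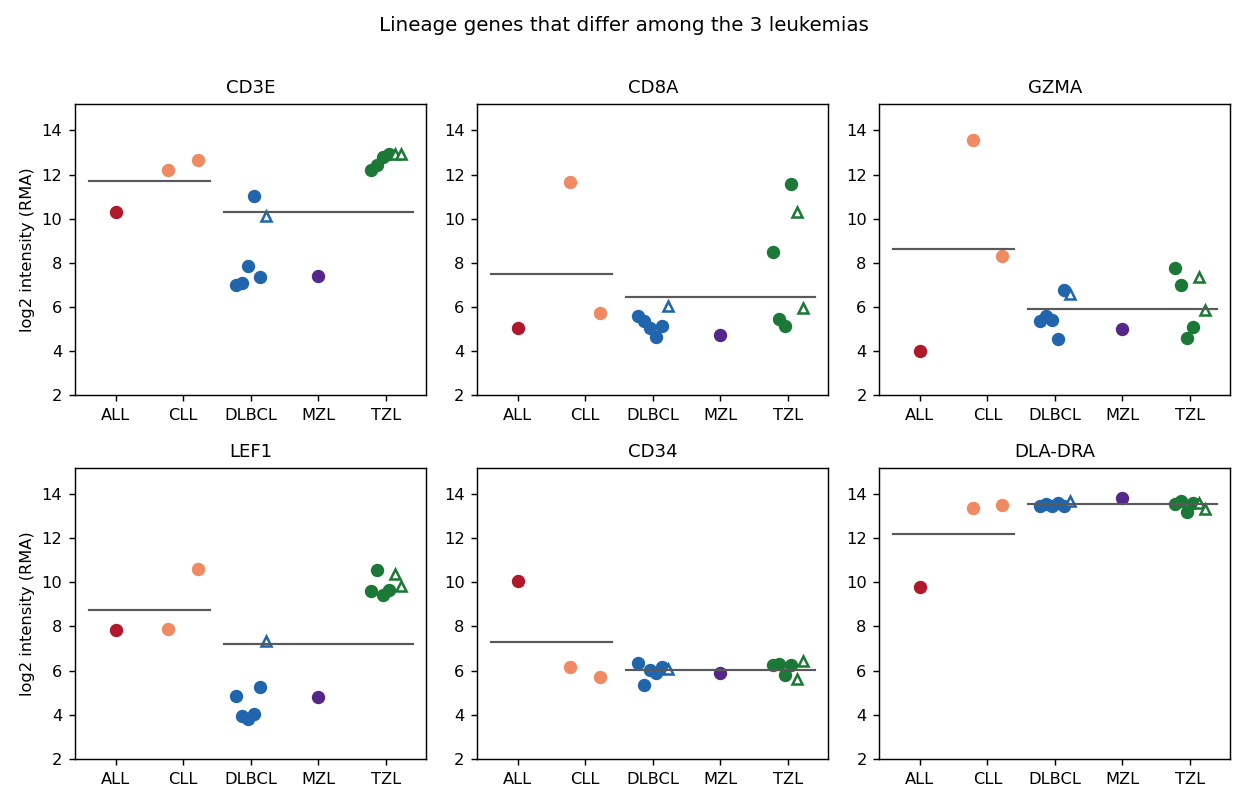
Log2 intensity of 6 lineage genes on each array by tumor type, drawn as in the plot of platelet and myeloid genes. CD3E is high in both CLLs and in TZL, and CD8A is high in CLL Maddle, TZL Shilo and TZL Thunder. GZMA is high in CLL Maddle, CD34 is high and DLA-DRA low in the ALL.

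How far the named genes rested on single arrays varied. Of the 48 that passed, 24 passed whichever of the 16 arrays was left out, 13 of them higher and 11 lower in leukemias. With the actin difference as a covariate 10 of the 48 passed, all in the same direction: GNG11, ITGA2B, GP1BA, FCER1G, TREM2, PPIC, MYL9, FLT1, FCRLA and CD79B. Other probe sets of some genes differed from the one given or did not pass. For FECH another 4 ran from 0.96 to 1.67 and none passed. None passed either of the others of PLPP3 (-3.99 and -3.385), IGFBP7 (-2.36) and CD200 (2.09). Another 2 gave -2.22 and -0.15 for FCMR, -2.46 and -2.15 for EBF1, and -4.90 and -2.32 for KMO. In each of these pairs only 1 passed. For THBS1 another 2 gave 5.01 and 0.41, for FCRLA they ran from -4.57 to -0.14, for TREM2 from 0.04 to 3.62, for F13A1 another gave 0.65, for FN1 they ran from 1.09 to 1.88, and for APOE another gave 0.20.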

How the data were processed

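RNA of 16 canine tumors (3 leukemias, 13 lymphomas) was read on 1 Canine_2 array each. The deposited values are log2 intensities, which per the labels came from the authors' RMA run (affy package); versions and the set of arrays normalized together are not given in the sources used here. Values on the 16 arrays ran from 2.03 to 14.98, with array medians of 5.60 to 5.77, and no 2 arrays correlated above 0.9824.

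Of 43035 probe sets, 175 controls were left out. Of the other 42860, 29254 carried 1 symbol in the array annotation, 439 several and 13167 none; 27680 matched the RefSeq gene table (UU_Cfam_GSD_1.0, used for names only) by gene number. A gene was represented by its probe set of highest mean. The 24925 probe sets that exceeded the median of the array on 3 or more arrays were fitted by limma (3.58.1; R 4.3.3), with Benjamini-Hochberg adjustment over all of them (threshold 0.05). Controls were tested by exact permutation with Python 3.11.15. The 3 actin probe sets of the 5′ end were averaged, as were those of the 3′ end. In simulated data the fit found 28% of changes of 1 log2 unit, 68% of 2, 96% of 3 and 92% of 4 (50 each), with 9 false calls. Leukemia and lymphoma values were both drawn from normal distributions with the lymphoma mean and SD of each probe set. Probe sets were drawn independently, so the simulation held equal spreads and no actin difference between the groups. In the real data the spread of leukemias could be wider or narrower than that of lymphomas. The SDs were 4.77 and 1.065 for GZMA, and 0.22 and 1.75 for TIMP1. Whether the simulated rates hold for the real groups was not tested.

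Named genes were the 15 largest differences each way among genes that passed, up to 5 passing members of each of 23 lists (617 entries), and 62 defining members, of which 9 had no probe set with 1 symbol of theirs. Members of a list outside this rule, and genes of single leukemias, were named after their values were seen. Groups, lists and tests were chosen with earlier results of these data known. Alternatives covered filters, priors, array weights, normalization, covariates, subsets and left-out arrays. Cultured cells were left out. Figures used matplotlib 3.10.9.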

Additional observations from a re-analysis of the deposited data

Results flagged for a closer look

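Among the 30 genes with the largest differences, the 6 DLBCL and the 6 TZL arrays were each checked for a single array far from the rest, by the gap to its nearest neighbor as a share of the group's range (limit 0.625 for 6 arrays). Of 60 groups, 5 went past the limit, where chance gives about 1 in 20. PPIC was 9.27 in TZL Newman, where the next TZL was at 6.25. FN1 was 10.68 in DLBCL Snuggles, where the next DLBCL was at 5.76. GP1BA was 4.91 in TZL Fire, with the next at 3.90, and FCER1G was 5.04 in DLBCL Chieftain, with the next at 4.37; both arrays had high actin differences. CD40 was 7.80 in TZL Fire, below the next TZL at 9.48. For FN1 the array lay above every leukemia.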

How the results depend on the processing

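The count of 528 probe sets for leukemia against lymphoma was 3644 with array weights, 39 with the actin covariate, 3214 against DLBCL arrays only, 126 against TZL arrays only, 345 without probe sets that can match several transcripts, 1562 with DLBCL and TZL at equal weight, 3155 with all 34 arrays in 1 fit and 139 at an adjusted p under 0.01. Chosen after seeing the data, it was 0 against the 3 lymphomas with the highest actin differences (1192 at an unadjusted p under 0.05), 3252 without them, and 125 for the CLLs against TZL. The fit that gave 0 held 3 arrays in each group, so few probe sets could pass. Leaving out 1 array gave 234 to 1411. No filter (569), a stricter filter (375), a trend with a robust prior (519), centering (301 higher, 192 lower) and quantile normalization (618) stayed within 1.5 times. Against DLBCL the 4356 became 764 with the actin covariate and 2239 to 4790 without 1 leukemia. Against TZL the 281 became 16 with that covariate, 126 with the arrays of both groups alone, and 212 to 289 without 1 leukemia. The actin difference of 2.14 was 1.80 to 2.47 without 1 leukemia, and for the GAPDH control the sign turned (-0.24, exact permutation p = 0.234). Of the 48 named genes that passed, none changed sign under an alternative it was run under (39 were run with the stricter filter, 29 as means over all probe sets, and 28 without probe sets that can match several transcripts), and 29 to 33 passed without 1 leukemia, 41 to 48 without 1 lymphoma, 10 with the actin covariate, 27 against TZL arrays only and 0 against the 3 lymphomas with high actin differences. The cause of these changes was not tested. No paired analysis was possible because each array came from a different dog. Array signal near background limits genes that were low in both groups, such as PAX5, RAG1 and CD163.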
